A study of Mus musculus with 10 samples.

Results

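Broad RBPJ peaks at the promoters of single genes were described in mouse brain pericytes. They were selected on width and position, as peaks of at least 1500 bp whose centre lay within 1 kb of a protein-coding transcription start site (TSS) and no TSS of another protein-coding gene lay that near. The rule chose 1098 of 11094 peaks, which is 9.897% of all RBPJ peaks and 22.78% of the 4821 promoter peaks at single genes. They lay at 1087 genes. The other promoter peaks at single genes were 2538 medium peaks of 500 bp to under 1500 bp and 1185 narrow peaks under 500 bp, and these served as comparisons. A further 668 promoter peaks lay near TSSs of several genes and 5605 peaks lay over 1 kb from a TSS.

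RBPJ is the DNA-binding factor of Notch signalling. Without a signal it can hold corepressors such as SPEN at its sites, and when a ligand activates a Notch receptor the cleaved intracellular domain joins RBPJ with Mastermind proteins and activates transcription. Pericytes are mural cells that wrap capillaries, and Notch signalling between endothelial and mural cells is known for its part in their maturation. RBPJ recognises sequences around TGGGAA, and GTGGGAA is a longer form of that core.

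Untreated RD1 cells, labelled as mouse brain pericytes and grown in pericyte medium on collagen I, were profiled by chromatin immunoprecipitation and sequencing (ChIP-seq). The study's methods describe its cultured pericytes as primary cells from brains of Rbpj lox/lox mice aged 6 to 8 weeks, used at passage 12 to 20, so floxed Rbpj alleles are shared by all groups if RD1 is such a culture. The series has 10 samples in 5 groups of 2 replicates, which are RBPJ, H3K4me1, H3K4me3, histone H3 and input without antibody. The RBPJ peak files were analysed, while the 8 samples of the remaining groups were not used here. The peak files of both RBPJ replicates held the same bytes and were counted as 1 consensus list. That list gives positions without height, read count or sequencing depth. No spread between replicates could be given from it, and every interval and test covers counting error over peaks only.

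The RefSeq promoters of Lfng, Rbpj, Spen and Zfpm1 are shown because they lie inside broad peaks and carry the core near the TSS. Lfng encodes a glycosyltransferase that modifies Notch receptors, Rbpj encodes the immunoprecipitated factor itself, Spen encodes an RBPJ corepressor, and Zfpm1 encodes the GATA cofactor FOG-1. Each runs from 250 bp before to 50 bp after a RefSeq TSS on the gene's own strand (build GRCm38.p6), with TGGGAA or its reverse complement TTCCCA in capitals.
Lfng promoter, chr5:140607091-140607390, plus strand: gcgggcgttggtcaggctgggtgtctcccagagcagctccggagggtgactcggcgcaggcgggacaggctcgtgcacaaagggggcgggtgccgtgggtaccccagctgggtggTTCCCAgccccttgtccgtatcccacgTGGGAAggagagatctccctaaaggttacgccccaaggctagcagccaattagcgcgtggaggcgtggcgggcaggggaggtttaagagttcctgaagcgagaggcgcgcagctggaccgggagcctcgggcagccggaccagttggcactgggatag
Rbpj promoter, chr5:53590096-53590395, plus strand: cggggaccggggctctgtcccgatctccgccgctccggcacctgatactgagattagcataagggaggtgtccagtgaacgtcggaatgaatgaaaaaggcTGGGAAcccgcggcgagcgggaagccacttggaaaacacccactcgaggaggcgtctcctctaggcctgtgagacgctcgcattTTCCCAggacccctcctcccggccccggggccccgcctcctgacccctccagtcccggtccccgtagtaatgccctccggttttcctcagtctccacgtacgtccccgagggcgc
Spen promoter, chr4:141538548-141538847, minus strand: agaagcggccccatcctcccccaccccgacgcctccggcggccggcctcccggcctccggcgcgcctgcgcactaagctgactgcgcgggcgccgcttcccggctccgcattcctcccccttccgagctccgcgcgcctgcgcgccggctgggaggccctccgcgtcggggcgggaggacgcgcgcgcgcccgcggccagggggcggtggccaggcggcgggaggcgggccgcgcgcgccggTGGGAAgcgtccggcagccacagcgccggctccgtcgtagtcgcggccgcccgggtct
Zfpm1 promoter, chr8:122281891-122282190, plus strand: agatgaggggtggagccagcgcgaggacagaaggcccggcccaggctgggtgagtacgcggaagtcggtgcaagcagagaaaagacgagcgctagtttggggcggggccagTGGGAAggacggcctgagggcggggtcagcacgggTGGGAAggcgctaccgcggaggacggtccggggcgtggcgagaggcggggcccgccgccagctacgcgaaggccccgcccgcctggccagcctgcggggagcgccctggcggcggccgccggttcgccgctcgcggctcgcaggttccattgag
The Lfng, Rbpj and Zfpm1 windows each held 2 cores and the Spen window held 1. Both cores of Zfpm1 were of the longer form. The centre of the Rbpj peak lay 290 bp upstream of the nearest protein-coding start and in an intron. The Rbpj window is therefore at an internal start, not at the gene's 5' end. RefSeq promoters were matched for 856 of the 1087 genes, with 39 genes of 1 chromosome left out of the match, and 18 of the matched genes had a window inside the broad peak with at least 2 cores. Of 1188 distinct RefSeq windows of the member genes, inside the broad peak or not, 273 (23%) held at least 1 core and 2.19% at least 2. Of 32851 RefSeq promoter windows 25.6% and 3.79% did, so the windows shown are not typical. GTGGGAA was present in 6.05% of 21853 protein-coding promoters of the same length, and a match is a description of the letters, not a bound site.

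Width chose the members and is given as a description. The median width was 2167 bp (quartiles 1814 and 2723 bp, range 1500 to 12719 bp). At least 2 kb was reached by 673 members, 3 kb by 197 and 5 kb by 31, and together the members covered 2.68 Mb. At the limit, the peaks of Apc (1501 bp), Cul1 (1501 bp) and Camk2d (1500 bp) lay just inside, and those of Lamp1, Mcm2 and Taf4b lay just outside, each 1 bp under the limit. Of these near-limit peaks Apc held 0 TGGGAA sites, Cul1 held 2, and the others held 1 each. There were 10 genes with several members, and Plec, which encodes the cytoskeletal linker plectin, had 3.

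The widest member was that of H2-Q7, a class Ib major histocompatibility gene, at 12719 bp. It was followed by A530032D15Rik at 12561 bp, 2410141K09Rik at 9109 bp and Senp7, a SUMO protease gene, at 8321 bp. In these widest peaks 32.73% (H2-Q7), 38.42% (A530032D15Rik), 37.0% (2410141K09Rik) and 37.34% (Senp7) of bases were soft-masked repeat, against a median of 9.583% over all members. Reads with more positions than the aligner's limit were dropped by the authors, and the part of repeats in these widths was not tested. The next widest were Nop56 (7616 bp), a snoRNP core gene, Ahnak (7116 bp), which encodes a very large scaffold protein, Pcdh7 (6827 bp), a protocadherin gene, Rara (6669 bp), the retinoic acid receptor alpha gene, Nrp1 (6601 bp), a co-receptor gene for semaphorins and VEGF, and Igsf8 (6506 bp), an immunoglobulin superfamily gene. Repeat content in these ran from 8.13% (Pcdh7) to 17.64% (Ahnak).

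Broad peaks spread to both sides of the start site. A TSS lay inside 1086 of 1098 members (98.9%), and the median reach was 1012 bp upstream and 1266 bp downstream. The centre fell in an intron in 44.4%, in an exon in 27.0% and upstream of the gene in 28.7%. Only 32.4% of centres were within 250 bp of the TSS, against 74.0% in medium and 88.4% in narrow peaks. The centre was downstream of the TSS in 57.7% of broad peaks (95% Clopper-Pearson interval 54.7 to 60.6), 62.0% of medium and 43.9% of narrow peaks. The position of the centre was part of the rule, so these shares are a description. The comparisons of shares that follow used the two-sided Fisher's exact test with Benjamini-Hochberg adjustment over 38 tests.

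**Figure D1:**
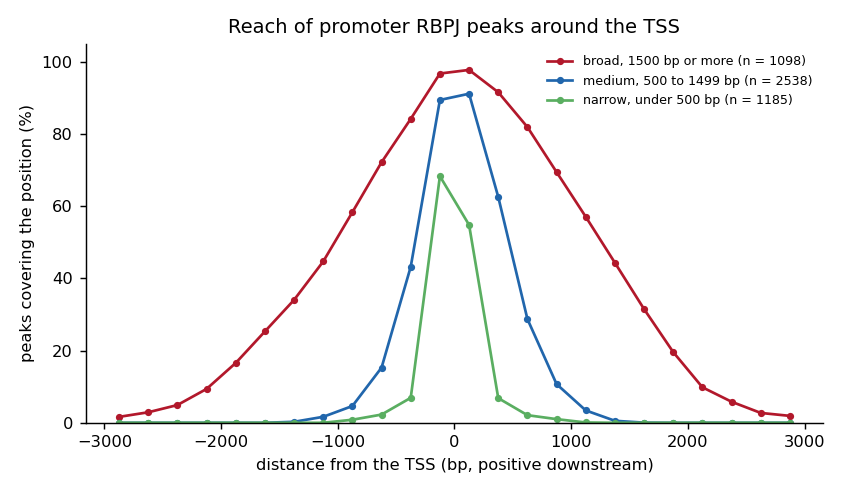
Share of peaks (%) that cover each position around the TSS, at the midpoints of 250 bp bins with distance in bp (positive downstream), for the broad, medium and narrow promoter peaks. Broad peaks cover the bin after the TSS in 97.81% of cases and still cover 57.1% at the bin from 1000 to 1250 bp downstream.

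The RBPJ core was frequent in the members in number and close to the surrounding sequence in density. They held 2814 TGGGAA sites, or 1.05 per kb, and at least 1 site was found in 970 members (88.3%). No site was found in 128 members (11.7%), and 167 members held at least 5. H2-Q7 held the most, with 17 sites in the widest interval. The density was 0.983 per kb in medium and 1.288 per kb in narrow peaks. In the same length of sequence beside the members the density was 1.011 per kb, a ratio of 1.039. Of the 60 hexamers with the same letters, TGGGAA had the highest such ratio, 3 were above 1, and the median ratio was 0.8995.

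Within the broad peaks, sites were sparser close to the start. The density was 1.12 per kb more than 250 bp upstream of the TSS, 0.801 per kb within 250 bp, and 1.11 per kb more than 250 bp downstream. The upstream portion held 39.2% of sites on 36.9% of the bases, and the downstream portion 45.6% of sites on 43.3% of the bases. The lowest value of the profile, 0.6812 sites per kb, was in the 250 bp after the TSS, where CpG density was highest at 9.413 per 100 bp. Medium and narrow peaks had the same low point, at 0.6604 and 0.7325 sites per kb, with 10.42 and 8.988 CpG per 100 bp.

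**Figure D2:**
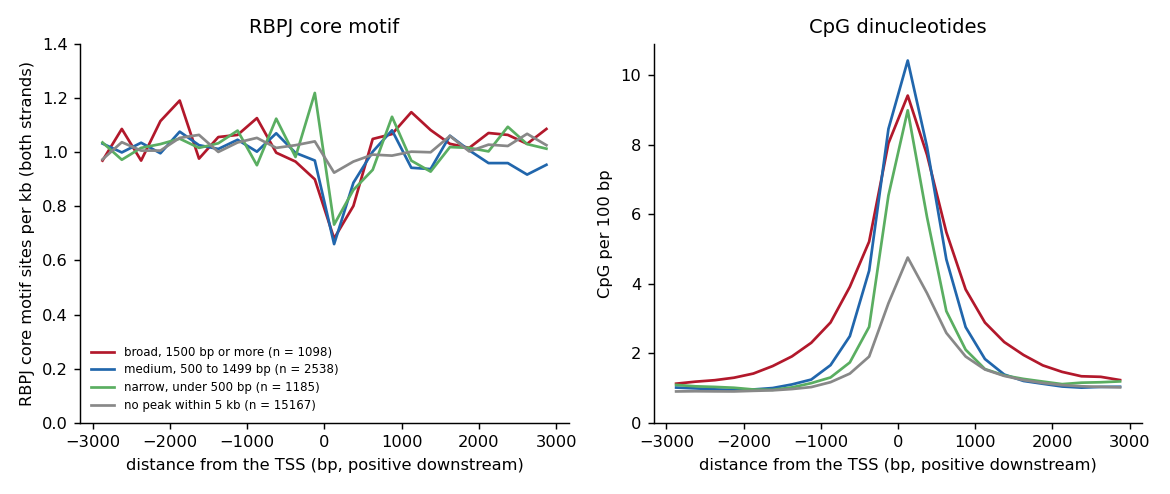
RBPJ core motif sites per kb (left) and CpG dinucleotides per 100 bp (right) in 250 bp bins against distance from the TSS in bp, for broad, medium and narrow promoter peaks and for TSSs with no peak within 5 kb. The motif falls to 0.6812 per kb just after the TSS of broad peaks, and their CpG density stays above that of the other groups beyond 500 bp on both sides.

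A TGGGAA in the central 200 bp was seen in 14.5% of broad peaks (159 of 1098, interval 12.5 to 16.7). Narrow peaks held it in 25.6%, and broad minus narrow was -11.1 points (adjusted exact p = 7.54e-10). The share in medium peaks was 12.5%, and this difference did not pass (adjusted exact p = 0.171). Calls within 2 kb of each other were merged by the authors, so the centre of a broad peak need not be near its strongest signal. In a window placed by the TSS, from 250 bp before to 50 bp after it, the core was present in 22.4% of broad, 23.2% of medium (adjusted exact p = 0.699) and 28.4% of narrow peaks (adjusted exact p = 0.00483). With broad peaks taken from 2000 bp, broad minus narrow was -4.88 points in this window and did not pass (adjusted exact p = 0.056). The longer GTGGGAA was present there in 5.46% of broad, 6.58% of medium (adjusted exact p = 0.327) and 8.69% of narrow peaks (adjusted exact p = 0.0105). In the flanks beyond 250 bp and up to 1000 bp from the TSS the core was found at 74.4% of broad, 77.7% of medium (adjusted exact p = 0.0618) and 77.7% of narrow peaks (adjusted exact p = 0.114). Among TSSs in a CpG-rich run of 1 kb or more the central shares were 13.4% for broad and 17.3% for narrow peaks (adjusted exact p = 0.166), and in the TSS window 19.2% and 20.9% (adjusted exact p = 0.633). GTGGGAA was in that window at 4.03% of broad and 7.69% of narrow peaks (adjusted exact p = 0.0371). At TSSs with a shorter run or none the central shares were 16.3% and 29.2% (adjusted exact p = 5.48e-06). There the TSS window held TGGGAA in 28.0% and 31.7% (adjusted exact p = 0.306) and GTGGGAA in 7.92% and 9.14% (adjusted exact p = 0.637). The difference between these splits was not tested.

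Long CpG-rich runs were more frequent at broad peaks than at either other width. CpG-rich runs are stretches of overlapping 200 bp windows with GC of at least 50% and an observed to expected CpG ratio of at least 0.6. A run of 1 kb or more was present at 63.2% of broad peaks (interval 60.3 to 66.1), 58.1% of medium peaks (adjusted exact p = 0.012) and 30.7% of narrow peaks (adjusted exact p = 8.57e-54). All promoters had one in 28.5% and promoters without a peak within 5 kb in 18.5%. The median run was 1187 bp in broad, 1074 bp in medium and 833 bp in narrow peaks. With broad peaks taken from 2000 bp, the difference from medium peaks was 4.59 points and did not pass (adjusted exact p = 0.0633). Inside the peaks, median GC was 57.1% in broad, 65.3% in medium and 65.2% in narrow peaks. Broad intervals reach further from the TSS, so these medians cover different distances. In the bin from 750 to 500 bp upstream, GC was 52.09% for broad, 47.1% for medium and 45.35% for narrow peaks. In the 250 bp after the TSS it was 66.99%, 69.03% and 66.35%.

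The TSS window was also searched, on both strands, for motifs of other promoter factors. CCGGAAG, a core of Ets family factors, was present at 12% of broad peaks (interval 10.2 to 14.1), below 18.3% of medium (adjusted exact p = 1.32e-05) and 20.2% of narrow peaks (adjusted exact p = 1.13e-06). All promoters had it in 11% and promoters without a peak within 5 kb in 7.88%. The GC box of Sp factors, GGGCGG, was present at 72.5% of broad, 75.7% of medium (adjusted exact p = 0.0798) and 66.4% of narrow peaks (adjusted exact p = 0.00594). All promoters had it in 43.8% and promoters without a peak within 5 kb in 34.5%. AAGATGGCG, which contains the core of YY1, was less frequent in broad than medium peaks (2.82% against 4.49%, adjusted exact p = 0.0461), as was TCGCGAGA (1.46% against 2.84%, adjusted exact p = 0.0357). Narrow peaks held AAGATGGCG in 3.38% (adjusted exact p = 0.577) and TCGCGAGA in 1.43% (adjusted exact p = 1). TGCGCA, the core of NRF1 sites, was at 11.6% of broad, 14.3% of medium (adjusted exact p = 0.0598) and 15% of narrow peaks (adjusted exact p = 0.0388). Over all promoters AAGATGGCG was at 1.72%, TCGCGAGA at 1.37% and TGCGCA at 9.88%. CCAAT (33.9%), the E-box CACGTG (8.47%), the AP-1 site TGACTCA (3.19%) and TATAAA (5.37%) did not differ past the threshold of 0.05 from either other width, and TATAAA was at 12.6% of all promoters.

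Other RBPJ peaks were more often near broad than near medium peaks. Another RBPJ peak lay within 50 kb at 63.8% of broad peaks (interval 60.8 to 66.6) and at 56.0% of medium peaks (adjusted exact p = 8.23e-05), while 60.5% of narrow peaks had one (adjusted exact p = 0.183). Within 100 kb the difference from medium peaks was 3.07 points and did not pass (adjusted exact p = 0.0633). The small gene Nrarp, a feedback inhibitor induced by Notch, had 8 other peaks within 50 kb, the most of any member, and Ahnak had 7. At least 3 other peaks were near 184 members (16.8%). The start of a noncoding transcript on the opposite strand lay within 1 kb at 17.2% of broad, 15.8% of medium (adjusted exact p = 0.381) and 11.1% of narrow peaks (adjusted exact p = 0.000148). Within 500 bp the shares were 12.2% of broad, 12.4% of medium (adjusted exact p = 0.937) and 9.54% of narrow peaks (adjusted exact p = 0.078). Genes of 50 kb or more made up 39.0% of broad, 36.4% of medium (adjusted exact p = 0.212) and 31.6% of narrow peaks (adjusted exact p = 0.000958). Only starts within 1 kb of the peak centre, which the rule also used, were counted for the spread of TSSs. These starts were spread over at least 200 bp at 27.6% of broad, 28.1% of medium (adjusted exact p = 0.831) and 19.0% of narrow peaks (adjusted exact p = 1.04e-05).

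**Figure D3:**
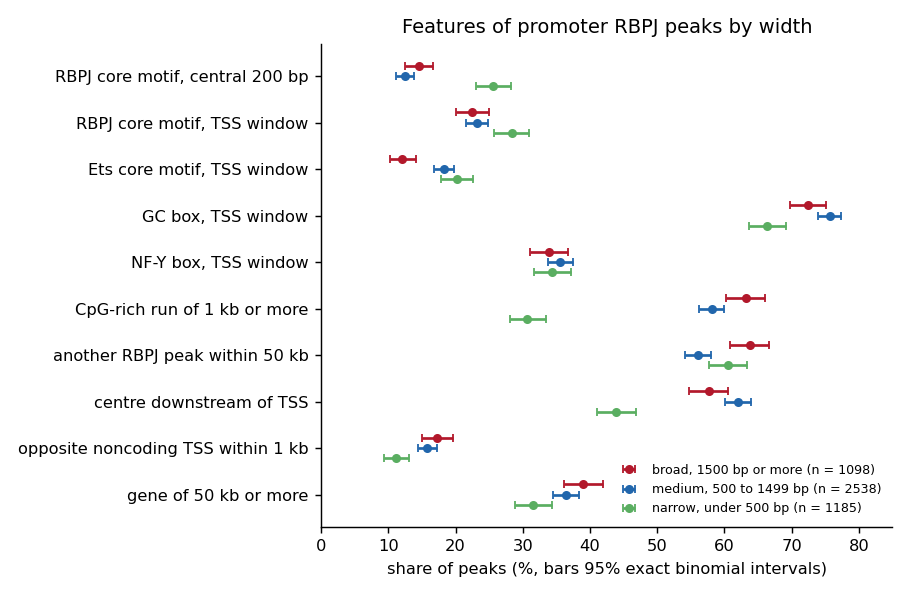
Share of broad, medium and narrow promoter peaks (%) with each of 10 features, as points with 95% exact binomial intervals. Broad peaks lie below both other widths for the Ets core motif (12%) and above both for a CpG-rich run of 1 kb or more (63.2%).

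Members were unevenly spread over chromosomes. Chromosomes 4, 7 and X held 8, 8 and 12 members, or 0.603, 0.395 and 1.27 per 100 protein-coding genes, against 3.99 to 9.94 on the other 17 autosomes. All single-gene promoter peaks were few there too (51, 67 and 55), and the cause was not tested. List genes on these chromosomes are included in the counts that follow.

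Of all 21911 protein-coding gene symbols, 4.96% had a broad promoter peak, and of the 4709 with any single-gene promoter peak 23.1% did. Lists were described against these shares without a test. Notch receptors, ligands and targets had broad peaks at 4 of 19 genes and medium peaks at 4 others. Jag1, a ligand, had a peak of 3408 bp with 5 TGGGAA sites, placed from -723 to 1814 bp relative to the TSS, with negative values upstream. Dll1, another ligand, had 2434 bp and 3 sites. The receptor gene Notch1 had 2189 bp and 1 site, at 1423 bp downstream, beside a separate narrow peak of 170 bp. Nrarp had 1701 bp and 2 sites, both downstream of the TSS. The receptors Notch2 (980 bp) and Notch3 (657 bp) and the target genes Hey1 (802 bp) and Hey2 (806 bp) had medium peaks.

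Genes for Notch processing and RBPJ cofactors had broad peaks at 10 of 41. Lfng was the widest at 5805 bp, with 10 sites. The corepressor genes Spen (2405 bp, 7 sites) and L3mbtl3 (2134 bp, 4 sites) were among them, and so was Rbpj (1589 bp, 5 sites). Those 5 sites gave Rbpj 3.147 per kb, seventh in density among members with at least 5 sites. The ubiquitin ligase genes Dtx4 (2255 bp, 2 sites), Dtx2 (1770 bp, 4 sites), Dtx3 (1537 bp, 5 sites) and Mib1 (1643 bp, 1 site), the glucosyltransferase gene Poglut1 (2071 bp, 3 sites) and the gamma-secretase subunit gene Aph1a (2027 bp, 3 sites) made up the rest. The coactivator genes Maml1 (621 bp) and Ep300 (552 bp) had medium peaks without a TGGGAA. Of the 27 genes of both Notch lists with a single-gene promoter peak, 14 (51.9%) had a broad one, beside 23.1% over all genes with such a peak.

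**Figure D4:**
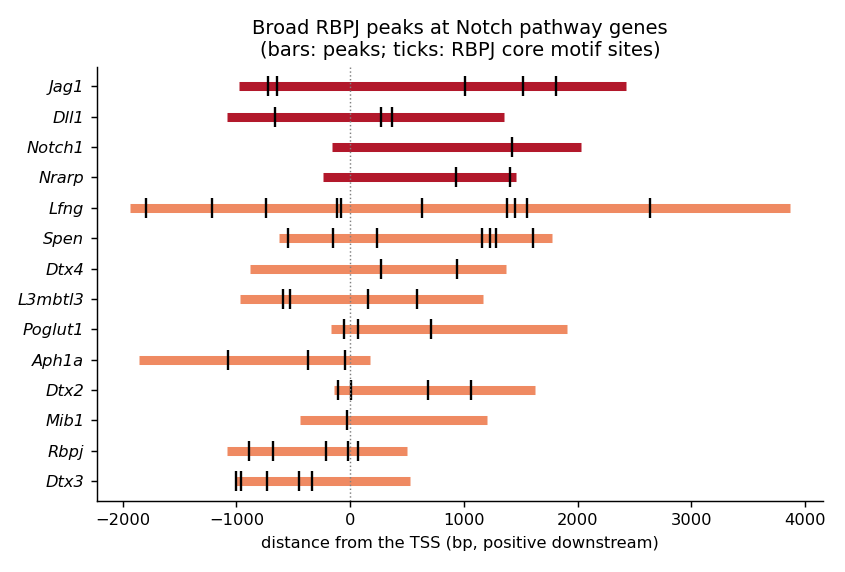
The 14 broad peaks at Notch pathway genes as bars against distance from the TSS in bp (positive downstream), receptors, ligands and targets in dark red and processing and cofactor genes in orange, with RBPJ core motif sites as black ticks. The bar of Lfng is the longest at 5805 bp and holds 10 ticks, and the only tick of Notch1 is 1423 bp downstream.

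Genes of signalling and matrix had shares between 13.3% and 21.1%. TGF-beta ligands, receptors and Smads had broad peaks at 8 of 38 genes, the widest at Ltbp3 (4365 bp), which encodes a latent TGF-beta binding protein, Bmpr2 (3196 bp), a BMP receptor gene, and Smad6 (2749 bp), an inhibitory Smad gene. Matrix, integrin and fibrosis genes had them at 6 of 45, which were the integrin genes Itga5 (3374 bp) and Itga2 (2204 bp), the fibronectin gene Fn1 (2650 bp), the laminin genes Lamc1 (1851 bp) and Lamb2 (1563 bp) and the nidogen gene Nid1 (1665 bp). All 6 held 3 or 4 TGGGAA sites. YAP and TEAD genes had them at 2 of 12, the angiomotin-like gene Amotl2 (3415 bp) and the kinase gene Lats2 (1695 bp). Among the genes with a single-gene promoter peak, broad peaks made up 47.1% in the TGF-beta list, 42.9% in the matrix list and 2 of 5 in the YAP and TEAD list.

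Immediate early factors and clock genes include widely used early response and feedback regulators. Of 31 AP-1, Atf3, Runx, Egr and immediate early factors 8 had a broad peak (25.8%), led by Fosl2 (5099 bp), Klf10 (5058 bp), Myc (5013 bp) and Junb (4318 bp). Runx2, Runx1, Fos and Atf3 followed with 1834 to 2485 bp. Of 19 circadian clock genes 6 had one (31.6%). The repressor gene Per2 had 5568 bp and 6 sites, Bhlhe41 3748 bp and 5 sites, Cry2 2459 bp and 6 sites, Bhlhe40 2291 bp and 5 sites, and Cry1 1859 bp and 4 sites. Clock, the activator gene, had 1827 bp and no site. Of the genes with a single-gene promoter peak, a broad one was found at 53.3% of the immediate early list and 66.7% of the clock list.

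Among regulators of growth and chromatin, 4 of 31 genes of cyclins, their kinases, CDK inhibitors, E2f factors and the Rb family had a broad peak (E2f1, 3546 bp, Cdk6, 3286 bp, E2f3, 2222 bp, and Cdkn1a, 2148 bp), and 11 had a medium one. Of 38 histone methylation enzymes 10 had one, the widest at the methyltransferase genes Nsd1 (3273 bp) and Nsd2 (3000 bp), with 0 to 3 TGGGAA sites over the 10. Sox, Fox, Tbx, Gata, Pax, Klf, Irf and Stat factors had 12 of 124 (9.68%), the widest at Gata6 (6384 bp). Zinc finger genes named Zfp had 22 of 365 (6.03%), the widest at Zfp367 (3466 bp). Counted over genes with a single-gene promoter peak, the broad share was 4 of 16 for the cyclin list, 43.5% for histone methylation enzymes, 41.4% for the Sox to Stat factors and 20.8% for Zfp genes.

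Housekeeping lists and the Hox clusters stood near or below 4.96%. Ribosomal protein genes had broad peaks at 3 of 81 (3.7%: Rpl13, Rpl10a and Rpl24, of 2091 to 2340 bp), respiratory chain genes at 4 of 82 (4.88%, the widest at Atp5b with 3501 bp), and proteasome and Hox genes at 0 of 39 each. These ribosomal, respiratory and proteasome lists had 51 genes with a single-gene promoter peak, of which 7 were broad (13.7%). Of the 8 pericyte markers none had a broad peak, and only Notch3 had a peak at all at its promoter. Of the other brain cell type markers 2 of 25 had a broad peak, the fibroblast marker Pdgfra (4197 bp) and the endothelial marker Kdr (1570 bp). Binding at a promoter is not expression, and these counts do not bear on the identity of the cells.

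**Figure D5:**
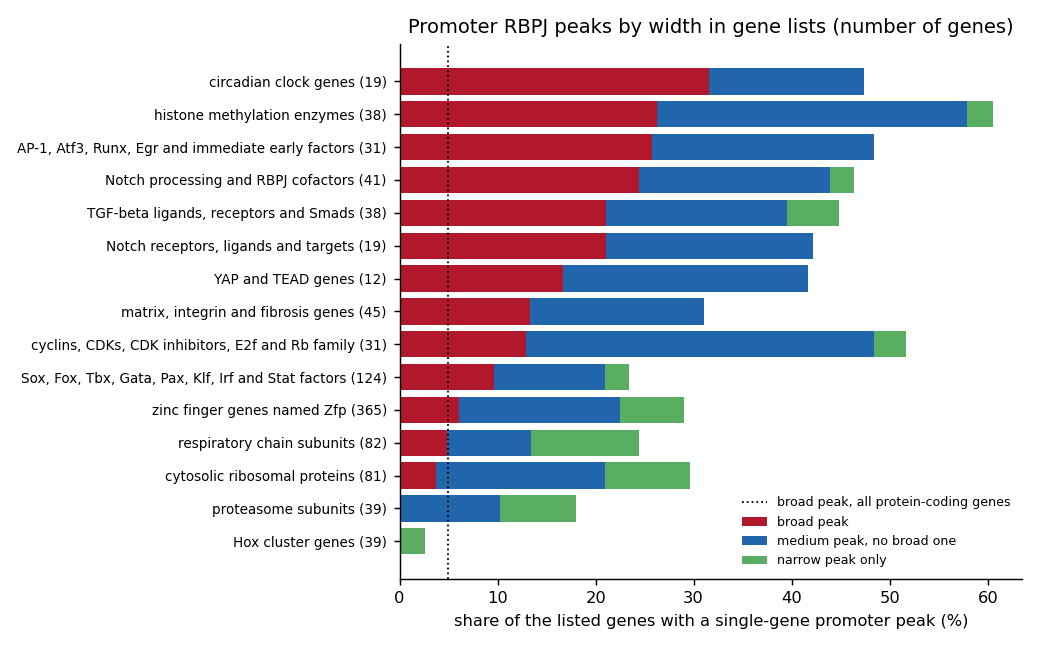
Share of genes (%) with a broad, medium or narrow single-gene promoter peak in 15 gene lists with at least 12 genes, stacked, with the number of genes in brackets and the dotted line at 4.96%, the share of all protein-coding genes with a broad peak. Circadian clock genes have 31.6% and the proteasome and Hox lists 0.0%.

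The members with most TGGGAA sites per kb, among those with at least 5 sites, are given here as a description, since a rank by sites per kb favours short peaks. Vars, a valyl-tRNA synthetase gene, had 3.584 per kb (6 sites in 1674 bp), Nmbr, a neuromedin B receptor gene, 3.582, Vdac1, a mitochondrial channel gene, 3.552, Rasa1, a Ras GTPase activating gene, 3.492, and Sox13, a transcription factor gene, 3.257. Dtx3 and Rbpj came next. In Nmbr 4 of the 6 sites were GTGGGAA. Over all members, pooled density was 1.02 per kb in those under 2000 bp and 1.22 per kb in the 31 of 5 kb or more.

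Paired sites can hold a dimer of Notch transcription complexes when a second site faces the first across a short spacer. Such head-to-head pairs (TGGGAA or TGAGAA followed by the reverse complement of either at a gap of 11 to 21 bp) were found 32 times, in 31 members. The pairs at a gap of 14 bp are shown because that gap was the most frequent over all peaks, together with the pairs at other gaps in list genes, which are Smurf2, a ubiquitin ligase gene of TGF-beta signalling, Lfng, Sox9, a transcription factor gene, and another pair of Bmpr2. The core letters are in capitals and the strand is that of the GRCm38 reference.
Ap4e1 pair, chr2:127010800-127010825, plus strand: TGGGAAgatgtaacttcatcTTCCCA
Bmpr2 pair, chr1:59765578-59765603, plus strand: TGAGAAaaaaacaactcataTTCTCA
Fermt2 pair, chr14:45530394-45530419, plus strand: TGAGAAgctgcctcgggaagTTCCCA
Flnc pair, chr6:29430769-29430794, plus strand: TGGGAAgaacatactagctcTTCTCA
Ndufs4 pair, chr13:114388436-114388461, plus strand: TGAGAAactaaagtagtactTTCCCA
Smurf2 pair, chr11:106919395-106919419, plus strand: TGGGAAcattaaacagtctTTCCCA
Lfng pair, chr5:140608676-140608699, plus strand: TGAGAAtgaggcgtccctTTCCCA
Bmpr2 pair, chr1:59763036-59763064, plus strand: TGGGAAaggcggctcggtcgggaTTCTCA
Sox9 pair, chr11:112779750-112779782, plus strand: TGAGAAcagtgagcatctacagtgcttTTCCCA
The pair of Ap4e1, an adaptor complex gene, had TGGGAA on both sides, 2082 bp downstream of the TSS. That of Ndufs4, a complex I gene, lay nearest to a TSS, 190 bp upstream. The 14 bp pairs of Bmpr2 and Flnc, a filamin gene, lay 2190 bp downstream and 2495 bp upstream, and that of Fermt2, a kindlin gene, 620 bp upstream. The other pair of Bmpr2 lay 350 bp upstream. The gap was 14 bp in 5 of 32 pairs (15.6%) in the members and in 94 of 273 pairs (34.4%) in all other peaks. These shares are a description, since the gap was picked for its number over all peaks. A gap of 15 bp was the most frequent in the members, with 6 pairs, and single gaps held 0 to 6.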

How the data were processed

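RBPJ ChIP-seq peaks of RD1 cells were analysed, with groups taken from the sample titles. Per the study's methods, reads were aligned by the authors with bowtie (GRCm38), peaks were called with Macs2 and Peakranger and joined within 2 kb, and regions supported by 3 or more calls over methods and replicates were kept outside blacklisted regions. The deposited values are positions in bp of that consensus list, so depth, strength and replicate spread cannot be read from it.

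Peak width was end minus start plus 1. TSSs were the 54327 starts of protein-coding transcripts in GENCODE M21, on GRCm38.p6. A peak counted as promoter peak within 1 kb by its centre. Its TSS was the protein-coding start nearest the centre, which need not be the gene's 5' end. Shares of peaks with a feature were compared by two-sided Fisher's exact tests with Benjamini-Hochberg adjustment over 38 tests, and 95% intervals were exact binomial ones by Clopper-Pearson. Peaks are not replicates of a condition. Members, lists and tests were chosen with earlier results of these data known. Genes named were the 10 widest members, the 3 nearest to the width limit on each side, list members (all for most short lists, with 1 gene not reported here, and the widest for others), members with a pair, and the 5 with most sites per kb. Zfpm1, Plec and the medium peaks named were picked with their values in view. The alternatives tried were the width and distance limits, 5' ends of genes as TSSs, starts read as counted from 0, other windows, neighbour distances and CpG-rich run limits, leaving out chromosomes 4, 7, X and Y, peaks of 5 kb or more, each replicate or repeat-rich sequence, and a split by CpG-rich run. Shares, runs and pairs were tested on simulated data. Promoter sequences came from RefSeq (GRCm38.p6), without the 39 genes on chromosome 18, and all 1215 windows compared were the same as the genome. The software was scipy 1.17.1, numpy 2.4.6, pandas 2.3.3 and matplotlib 3.10.9 under Python 3.11.15.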

Additional observations from a re-analysis of the deposited data

How the results depend on the processing

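Of 128 alternative values, 109 had the same sign and stayed on 1 side of the 0.05 threshold, or for counts stayed within 1.5 times. A minimum width of 1000 or 2000 bp gave 1920 or 673 members, a centre within 500 bp gave 649, and a gap of 14 bp alone left 5 pairs. With only the 5' ends of protein-coding genes as TSSs there were 867 members, within the 1.5 times limit. Differences below are broad minus the other width in percentage points, with Fisher's exact test and Benjamini-Hochberg adjusted p. With broad peaks taken from 2000 bp, TGGGAA in the TSS window was 0.27 against medium (exact p = 0.902, reversed) and -4.88 against narrow peaks (exact p = 0.056), TGGGAA in the flanks against medium was -4.63 (exact p = 0.0346), and a CpG-rich run against medium was 4.59 (exact p = 0.0633). Flanks to 2000 bp gave 0.253 against medium (exact p = 0.831, reversed). Another peak within 100 kb gave 3.07 against medium (exact p = 0.0633). An opposite noncoding TSS within 500 bp gave -0.168 against medium (exact p = 0.937, reversed) and 2.67 against narrow peaks (exact p = 0.078).

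Splitting by CpG-rich run was chosen after seeing the data. At TSSs with a run of 1 kb or more, TGGGAA in the central 200 bp was -3.91 against narrow (exact p = 0.166), GTGGGAA was -3.66 against narrow (exact p = 0.0371), and TGGGAA in the TSS window was 0.113 against medium (exact p = 0.979, reversed) and -1.71 against narrow peaks (exact p = 0.633). At the other TSSs, TGGGAA in the central 200 bp was -12.9 against narrow (exact p = 5.48e-06), TGGGAA in the TSS window was -3.7 against narrow (exact p = 0.306), GTGGGAA was 0.301 against medium (exact p = 0.85, reversed) and -1.21 against narrow (exact p = 0.637), and another peak within 50 kb was 6.8 against narrow peaks (exact p = 0.0485). The cause of these shifts was not tested, and splitting leaves fewer peaks. No paired analysis was possible because both replicates share 1 peak list. Leaving out either replicate returned the same values by construction (1098 members, 32 pairs) and says nothing about stability, so these 32 values are not counted above. Without a score, peaks could not be ranked by strength, and depth limits what was called.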
